A study of Homo sapiens with 4 samples.

Results

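The RAB proteins are the largest family of small GTPases that direct membrane traffic, and the transcripts of their genes were compared between cisplatin-resistant and wild type UM-UC-3 cells, an established human urothelial carcinoma line. The members were all genes whose symbol is RAB followed by digits and at most 1 letter, which gave 49 of the 13743 genes analysed; 48 are annotated as protein-coding and RAB1C as a processed pseudogene in GENCODE 29. Another 28 symbols that start with RAB, such as those of RAB effectors, fell outside this rule. Transcript 5' ends were counted by cap analysis of gene expression (CAGE) in 2 samples of the resistant subline, which was kept in medium with 5 µM cisplatin, and in 2 samples of wild type UM-UC-3 cells. No source used here gives the medium of the wild type, so acquired resistance and the presence of the drug cannot be told apart. No label says whether the subline is a clone or that its replicates were grown apart, and the p-values therefore describe spread among these libraries alone, which may be technical.

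Each RAB protein cycles between a GTP-bound form, which sits on a membrane and recruits effectors such as tethers and motors, and a GDP-bound form that is drawn off the membrane by a dissociation inhibitor. Exchange factors switch a RAB on, GTPase-activating proteins switch it off, and a prenyl anchor attached after synthesis holds it in the membrane. Different RABs mark different compartments: RAB5 the early endosome, RAB7 the late endosome, RAB11 the recycling endosome, RAB1 the path from the endoplasmic reticulum (ER) to the Golgi, and RAB3 and RAB27 secretory vesicles. In carcinoma cells these routes are known for setting how long receptors, integrins and transporters stay at the surface.

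Values are in CPM, the reads of a gene scaled to the same total in every sample. The columns held 17800730 and 21189219 reads in resistant cells and 18159291 and 18237681 reads in wild type cells, taking the step between values as 1 read. Of the 49 members, 47 passed the filter of a mean of at least 1 CPM and were tested; RAB17 and RAB20 did not pass. In resistant against wild type cells 16 rose and 14 fell (limma on log2(CPM + 1), adjusted p under 0.05 over all 12587 genes tested), whereas 17 did not pass the threshold. The called share was 63.8% of the members, beside 55.2% of all genes tested. Higher calls took 34% of the members and 33.5% of all genes, and lower calls 29.8% and 21.6%, so the shares lay close to the background. The median log2 fold change was -0.03 for the members and 0.09 for all genes. The groups did not overlap in 38 of the 47 members, beside 78.5% of all genes. Without resistant replicate 1, 12 members were called higher and 8 lower, and without resistant replicate 2 the counts were 14 and 7. Among all genes 4221 were higher and 2724 lower, a split that became 3574 to 3420 under median-ratio scaling and 3500 to 3403 under quantile normalization, while that of the members was 15 to 16 and 16 to 17. The sum over all members was 2618 and 2566 CPM in the resistant samples, against 2478 and 2456 CPM in the wild type samples, a smaller shift than that of several compartment groups within it.

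**Figure D1:**
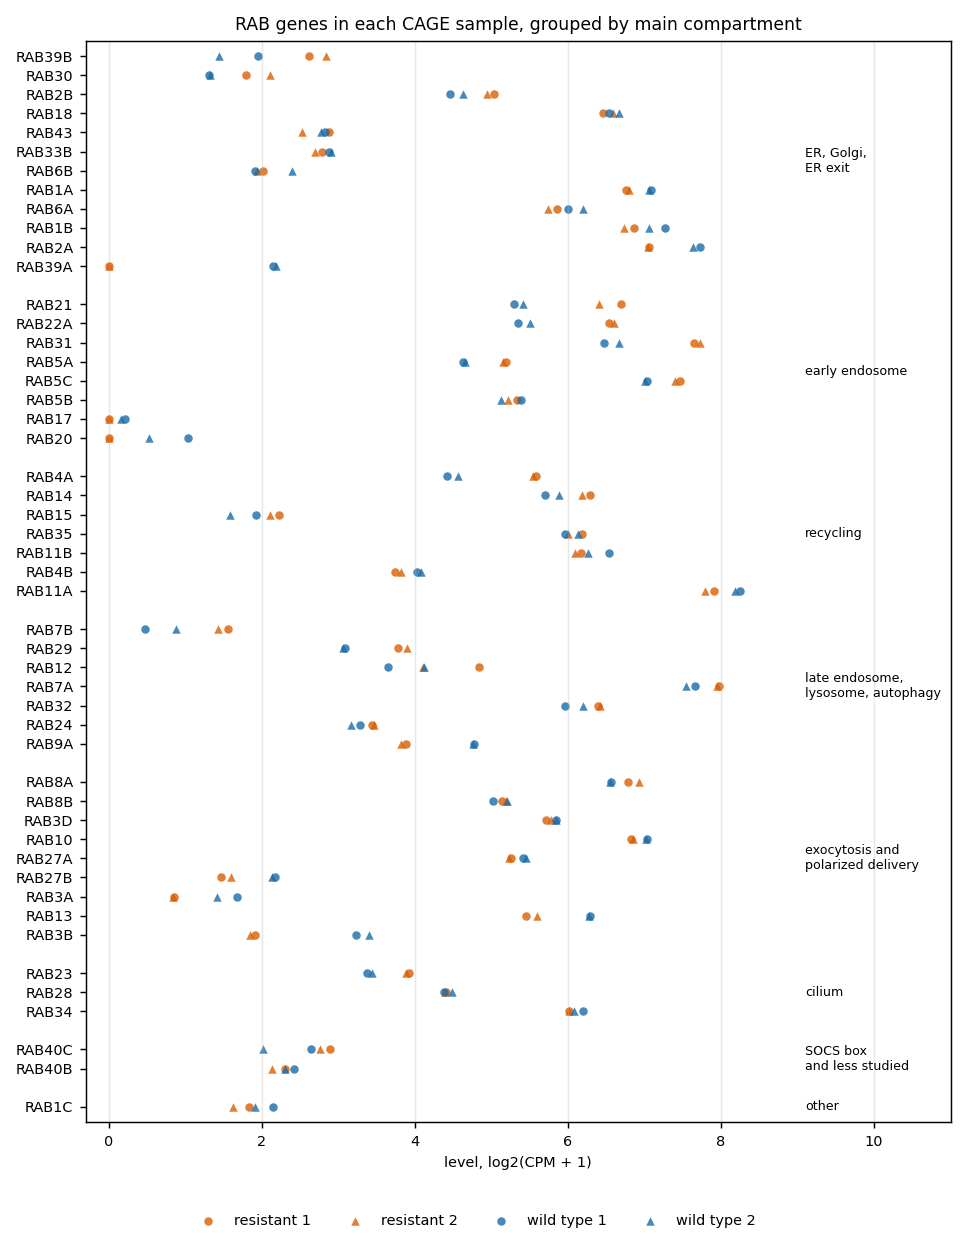
Level of the 49 RAB genes in each sample on a log2(CPM + 1) axis, with rows grouped by the compartment each RAB is known for; orange points are the 2 resistant samples and blue points the 2 wild type samples. RAB39A, RAB17 and RAB20 lie at 0 in both resistant samples, and RAB21, RAB22A and RAB31 lie to the right of their wild type points.

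Of the 8 early endosome RABs 6 were tested; 5 of these rose (83.3%, beside 33.5% of all genes) and 0 fell, RAB5B was not called, and the untested RAB17 and RAB20 were listed at 0 in resistant cells. A test of the group was not run, and the groups were drawn up with earlier results of these data known. The 6 tested members' median log2 fold change was 0.82. The summed level of the group was 642 and 628 CPM in resistant cells against 361 and 373 CPM in wild type cells. RAB21 (ENSG00000080371.6), which carries integrins through early endosomes, read 102 and 83.8 CPM in the resistant samples, against 38.1 and 41.7 CPM in the wild type samples. The resistant pair lay wholly above the wild type pair, a log2 fold change of 1.20 with a standard error (SE) of 0.10 (limma, adjusted p = 4.4e-05). RAB22A (ENSG00000124209.4), which acts between early endosomes and the recycling path, read 91.5 and 95.8 CPM in resistant cells and 39.8 and 44.3 CPM in wild type cells. Its groups were well apart, with a log2 fold change of 1.14 (SE 0.08; limma, adjusted p = 1.7e-05). RAB31 (ENSG00000168461.13), a close relative of RAB22A that works at the trans-Golgi network and endosomes, read 199 and 210 CPM in resistant cells and 88.0 and 101 CPM in wild type cells. The resistant mean was 2.16 times that of wild type (log2 fold change 1.11, SE 0.08; limma, adjusted p = 2e-05). These 3 genes, with RAB4A and RAB39B, were the 5 members called higher at a log2 fold change of at least 1, where 4.14% of all genes tested were. Membership of this set moved with the scale. RAB7B lay at 0.82 on log2(CPM + 1), and at 1.32 with 0.25 CPM added in place of 1. Under median-ratio scaling RAB4A and RAB39B lay at 0.99 and 0.97.

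The RAB5 paralogs, which organise fusion of endocytic vesicles with early endosomes, differed among themselves. RAB5A read 35.4 and 34.6 CPM in resistant cells and 23.7 and 24.2 CPM in wild type cells, and RAB5C read 175 and 168 CPM against 130 and 127 CPM. Both rose, at log2 fold changes of 0.53 and 0.42 (limma, adjusted p = 9e-04 and 0.00088). RAB5B read 39.3 and 36.0 CPM in resistant cells and 40.6 and 34.0 CPM in wild type cells. Its groups overlapped and it did not pass the test (limma, adjusted p = 0.9); its sign turned under both other scalings. Whether RAB5B differs from its paralogs in response was not tested. The remaining pair of the group was barely detected. RAB20, an endosomal RAB known to be induced by hypoxia in other cells, was listed at 0 in both resistant samples and at 0.44 to 1.04 CPM in the wild type samples, which is 27 reads. With the resistant level set at a floor of 3 reads over the group, RAB20 was 9.64-fold lower in resistant cells. At that floor it was 5.73-fold lower without wild type replicate 1, 4.4-fold without resistant replicate 1 and 5.24-fold without resistant replicate 2. The exact 95% interval of the read ratio, which includes the counting error of the wild type reads, began at 7.32-fold. That interval sums the reads of each group and leaves out spread between libraries. RAB17, a RAB of polarized epithelial cells, had 0 reads in resistant and 5 in wild type cells, too few for a ratio. In a single resistant sample 3 reads are 0.142 and 0.169 CPM. The floor over the group counts 3 reads in both resistant samples pooled, which is a lower CPM than either. It covers counting error of the resistant reads only.

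**Figure D2:**
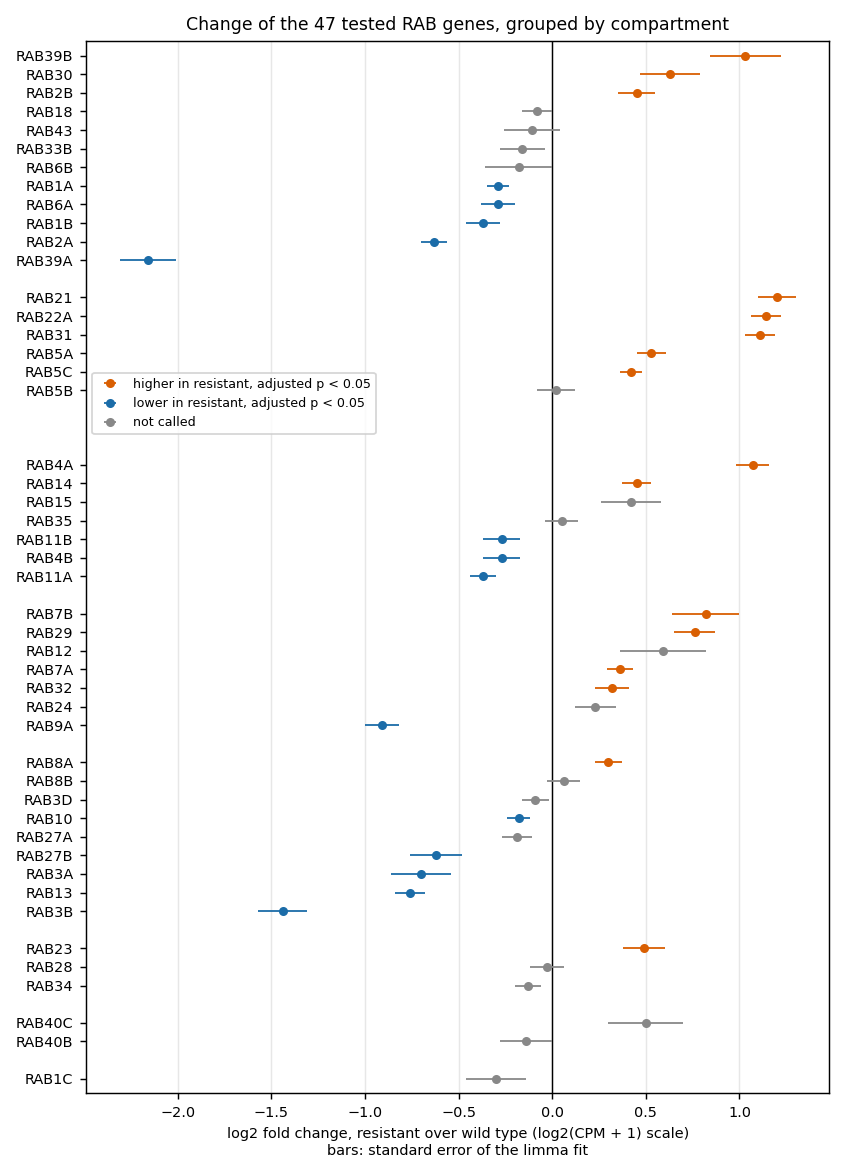
Log2 fold change of resistant over wild type for the 47 tested RAB genes, with bars of 1 SE from the limma fit and rows grouped by compartment; orange marks genes called higher, blue genes called lower and grey those not called. The early endosome block lies at or right of 0, from 0.02 to 1.20, and the exocytosis block runs from -1.44 to 0.30.

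Recycling RABs were divided. Of 7 tested members 2 rose (28.6%, beside 33.5% of all genes) and 3 fell (42.9%, beside 21.6%), and their summed level was 520 and 485 CPM in resistant cells and 545 and 532 CPM in wild type cells. RAB4A (ENSG00000168118.12), which governs fast return of receptors to the surface, read 47.01 and 45.5 CPM in resistant samples and 20.3 and 22.6 CPM in wild type samples. It was 2.15 times the wild type level, with no overlap (log2 fold change 1.07, SE 0.09; limma, adjusted p = 3.4e-05). Its paralog RAB4B read 12.4 and 13.1 CPM in resistant cells and 15.3 and 15.9 CPM in wild type cells. RAB4B was called lower (log2 fold change -0.27; limma, adjusted p = 0.048), a call lost without wild type replicate 1 (0.062), wild type replicate 2 (0.11), resistant replicate 1 (0.24) or resistant replicate 2 (0.13), with no filter on low values (0.058) and with the replicate number as a block (0.056). RAB4B shares all 4 values with its readthrough row RAB4B-EGLN2. RAB14, which sorts between early endosomes and the Golgi, rose to 76.7 and 71.8 CPM in resistant cells, against 50.9 and 57.7 CPM in wild type cells (log2 fold change 0.45; limma, adjusted p = 0.0025). RAB11A, the main RAB of the recycling endosome, fell to 238 and 221 CPM in resistant cells, against 304 and 290 CPM in wild type cells (log2 fold change -0.37; limma, adjusted p = 0.0023); without resistant replicate 2 the adjusted p was 0.064. RAB11B read 70.9 and 66.9 CPM in resistant cells and 91.4 and 75.3 CPM in wild type cells, and its lower call at an adjusted p of 0.045 (limma) was lost without resistant replicate 1 (0.14), resistant replicate 2 (0.25) or wild type replicate 1 (0.16), without the trend of variance on level (0.1) and with no filter on low values (0.055). The resistant means of RAB11A and RAB11B were 0.774 and 0.826 times the wild type means.

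Of 7 tested late endosome, lysosome and autophagy RABs 4 rose (57.1%, beside 33.5% of all genes), 1 fell and 2 were not called; RAB7A and RAB32 lost their calls when a resistant library was left out. Their median log2 fold change was 0.36. RAB7A, which drives fusion of late endosomes with lysosomes, read 250.7 and 245 CPM in resistant cells and 201 and 185 CPM in wild type cells. It rose by 0.36 on the log2 scale (SE 0.07; limma, adjusted p = 0.0027), with an adjusted p of 0.056 without resistant replicate 1. RAB7B, which acts between endosomes and the trans-Golgi network, was low, at 1.93 and 1.69 CPM in resistant and 0.38 and 0.83 CPM in wild type cells. It was 2.99 times the wild type level and 4.76 times without wild type replicate 2 (log2 fold change 0.82; limma, adjusted p = 0.0055). RAB29, which recruits the kinase LRRK2 to Golgi and lysosome membranes, rose to 12.7 and 13.9 CPM in resistant cells, against 7.51 and 7.32 CPM in wild type cells (log2 fold change 0.76, SE 0.11; limma, adjusted p = 0.00067). In the opposite direction, RAB9A, which returns mannose 6-phosphate receptors from late endosomes to the Golgi, read 13.8 and 13.1 CPM in resistant samples and 26.2 and 25.9 CPM in wild type samples. The groups were far apart, and it fell by 0.91 on the log2 scale (SE 0.09; limma, adjusted p = 1e-04). RAB32, a RAB of mitochondria and lysosome-related organelles named here after its values were seen because it is a called member outside the ranks shown, read 83.0 and 84.2 CPM in resistant and 61.4 and 72.5 CPM in wild type cells (log2 fold change 0.32; limma, adjusted p = 0.015). Its call was lost without resistant replicate 1 (0.098), without resistant replicate 2 (0.12) and under median-ratio scaling (0.055) and quantile normalization (0.094).

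**Figure D3:**
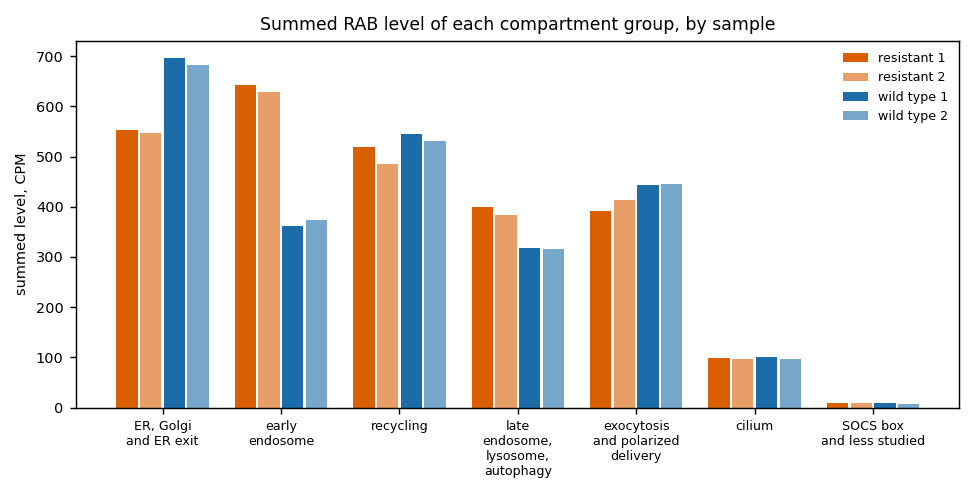
Summed level in CPM of the RAB genes of each compartment group, with 1 bar per sample, resistant samples in orange and wild type samples in blue. The early endosome bars reach 642 and 628 CPM in resistant against 361 and 373 CPM in wild type cells, while the ER and Golgi bars reach 553 and 547 against 696 and 682 CPM.

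CAGE reads start at the transcription start site, so the promoters of the members that rose are shown here as sequence. RefSeq (GRCh38.p14) gave the 300 bases from 250 before to 50 after the annotated start for 41 of the 49 members. The E-box CACGTG, which is its own reverse complement and which MYC and TFEB-type factors are known to bind, was found in 5 of the 15 members called higher that had a promoter, in 0 of the 12 called lower and in 1 of the 13 not called, RAB24. Over the 41 members it stood in 6 (14.6%). The share was 10.6% in the promoters of 8973 tested genes and 7.43% in 27305 promoters of all genes. Its share among all genes called higher or lower was not taken, so a link to the direction of change was not tested. The longer form CACGTGAC, searched after the sequences had been read and on both strands, where it overlaps the E-box, was found in 5 of the 41 members (12.2%) and in 4.77% of the promoters of tested genes; the 5 were RAB21, RAB31, RAB5A and RAB29, called higher, and RAB24, not called. The cyclic AMP response element TGACGTCA was found in 0 of the 41 promoters against 3.66% of those of tested genes, an interferon-type motif (GAAA, any 2 bases, GAAA) in 1 (RAB27A) and the TATA box TATAAA in 1 (RAB7B), both strands being searched. The hypoxia core ACGTG, which every E-box contains, was found in 36.6% of the members and in 27.7% of tested genes, and CCAAT in 26.8% and 38.1%. A match describes the letters of this window, and the annotated start need not be the one used in these cells, because the values were summed per gene. Shown are the 5 members called higher that hold an E-box, RAB22A as a member that rose without it, and RAB39A as the member with the largest fall, 5' to 3' on the strand of the gene, with the E-box in capitals.
RAB21, chr12:71754613-71754912, plus strand: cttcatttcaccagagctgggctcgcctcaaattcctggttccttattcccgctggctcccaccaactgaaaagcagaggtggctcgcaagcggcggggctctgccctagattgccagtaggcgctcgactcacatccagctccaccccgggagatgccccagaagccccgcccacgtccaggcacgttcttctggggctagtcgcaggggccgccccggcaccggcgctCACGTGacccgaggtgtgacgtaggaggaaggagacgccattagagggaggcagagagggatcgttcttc
RAB31, chr18:9708051-9708350, plus strand: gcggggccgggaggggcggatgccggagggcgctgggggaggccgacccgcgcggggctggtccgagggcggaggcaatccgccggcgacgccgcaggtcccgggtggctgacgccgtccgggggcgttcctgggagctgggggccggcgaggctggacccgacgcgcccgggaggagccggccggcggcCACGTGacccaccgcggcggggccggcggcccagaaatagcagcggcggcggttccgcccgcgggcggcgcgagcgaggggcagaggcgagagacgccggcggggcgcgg
RAB5A, chr3:19946847-19947146, plus strand: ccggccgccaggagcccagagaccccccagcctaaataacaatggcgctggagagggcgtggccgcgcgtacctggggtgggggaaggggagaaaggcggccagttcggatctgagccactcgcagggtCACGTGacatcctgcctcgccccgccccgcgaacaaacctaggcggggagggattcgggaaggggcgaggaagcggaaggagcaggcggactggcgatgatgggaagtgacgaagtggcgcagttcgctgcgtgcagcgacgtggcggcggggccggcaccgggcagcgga
RAB4A, chr1:229270861-229271160, plus strand: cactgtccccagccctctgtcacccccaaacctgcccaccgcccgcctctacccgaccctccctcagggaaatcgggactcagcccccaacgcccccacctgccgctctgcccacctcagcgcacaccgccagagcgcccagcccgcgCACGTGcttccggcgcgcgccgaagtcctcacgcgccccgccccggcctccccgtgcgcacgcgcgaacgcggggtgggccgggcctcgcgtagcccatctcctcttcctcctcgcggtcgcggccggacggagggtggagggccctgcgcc
RAB29, chr1:205775433-205775732, minus strand: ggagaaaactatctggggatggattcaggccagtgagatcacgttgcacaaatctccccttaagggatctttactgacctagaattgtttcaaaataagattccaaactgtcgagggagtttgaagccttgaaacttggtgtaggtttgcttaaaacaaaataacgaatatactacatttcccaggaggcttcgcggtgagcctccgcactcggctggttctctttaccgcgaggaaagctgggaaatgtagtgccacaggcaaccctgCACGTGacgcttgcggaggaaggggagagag
RAB22A, chr20:58309465-58309764, plus strand: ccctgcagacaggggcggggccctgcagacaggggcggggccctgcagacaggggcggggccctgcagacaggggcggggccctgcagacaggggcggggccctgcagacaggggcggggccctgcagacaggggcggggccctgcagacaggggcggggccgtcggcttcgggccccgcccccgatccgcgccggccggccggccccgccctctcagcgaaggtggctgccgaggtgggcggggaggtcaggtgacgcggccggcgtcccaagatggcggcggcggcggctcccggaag
RAB39A, chr11:107928198-107928497, plus strand: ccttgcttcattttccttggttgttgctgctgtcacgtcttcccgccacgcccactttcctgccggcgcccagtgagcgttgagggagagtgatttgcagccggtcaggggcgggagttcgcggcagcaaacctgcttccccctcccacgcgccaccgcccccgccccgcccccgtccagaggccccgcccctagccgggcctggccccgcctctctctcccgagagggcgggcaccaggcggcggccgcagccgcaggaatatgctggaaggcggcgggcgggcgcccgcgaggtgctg
The E-box starts 20 bases before the annotated start in RAB21, 60 before in RAB31, 121 before in RAB5A and 102 before in RAB4A, and at base 20 after it in RAB29. The members' promoters held a median of 29 CpG pairs and those of tested genes 27.

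RABs of the ER and Golgi differed in direction. Of 12 tested members 5 fell (41.7%, beside 21.6% of all genes), 3 rose (25%, beside 33.5%) and 4 were not called. Their median log2 fold change was -0.17, and the summed level was 553 and 547 CPM in resistant cells against 696 and 682 CPM in wild type cells. RAB2A (ENSG00000104388.15), which tethers membranes between ER and Golgi, read 132 and 131 CPM in resistant samples and 210 and 197 CPM in wild type samples. It fell by 0.63 on the log2 scale (SE 0.07; limma, adjusted p = 0.00012), while its paralog RAB2B read 31.9 and 29.8 CPM in resistant and 21.0 and 23.8 CPM in wild type cells and rose (log2 fold change 0.45; limma, adjusted p = 0.0048), with an adjusted p of 0.067 without resistant replicate 1. RAB1A and RAB1B, which start transport from the ER to the Golgi, fell together. RAB1A read 107 and 110.4 CPM in resistant cells and 134 and 132 CPM in wild type cells, and RAB1B read 115 and 105 CPM against 153 and 133 CPM. Their log2 fold changes were -0.29 and -0.37 (limma, adjusted p = 0.0056 and 0.0074). The RAB1A call was lost without resistant replicate 1 (0.09) or resistant replicate 2 (0.059), and that of RAB1B without resistant replicate 2 (0.11). RAB1C, the pseudogene, was low and did not pass (limma, adjusted p = 0.14). It overlaps the row AL138752.2 on the same strand. Whether reads of RAB1A or RAB1B were placed on RAB1C was not tested. RAB6A, which steers traffic within and out of the Golgi, read 57.0 and 52.6 CPM in resistant cells and 62.7 and 72.3 CPM in wild type cells (log2 fold change -0.29; limma, adjusted p = 0.023), a call lost without resistant replicate 1 (0.077), resistant replicate 2 (0.19) or wild type replicate 2 (0.077) and without the trend of variance on level (0.059). RAB6B did not pass (adjusted p = 0.43), and its groups overlapped.

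The RAB39 paralogs moved in opposite directions. RAB39A (ENSG00000179331.3), which is known from phagosomes and autophagy and was counted with the Golgi group here, was listed at 0 in both resistant samples and read 3.40 and 3.52 CPM in the wild type samples. In reads this was 0 against 126. With the resistant level set at a floor of 3 reads over the group, RAB39A was 45-fold lower in resistant cells. At that floor it was 20.5-fold lower without resistant replicate 1 and 24.5-fold lower without resistant replicate 2. The exact 95% interval of the read ratio, which includes the counting error of the wild type reads, began at 36.1-fold. It too sums the reads of each group and leaves out spread between libraries. RAB39A was called lower (limma, adjusted p = 1.6e-05). RAB39B, a neuronal and Golgi RAB linked to intellectual disability and Parkinson's disease, read 5.14 and 6.12 CPM in resistant cells and 2.85 and 1.71 CPM in wild type cells. It rose by 1.03 on the log2 scale (SE 0.19; limma, adjusted p = 0.002), and the groups did not overlap. RAB30, a Golgi RAB, read 2.45 and 3.31 CPM in resistant and 1.48 and 1.49 CPM in wild type cells (log2 fold change 0.63; limma, adjusted p = 0.01), with an adjusted p of 0.084 without resistant replicate 2.

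Of 9 tested RABs of exocytosis and polarized delivery 5 fell (55.6%, beside 21.6% of all genes), 1 rose (11.1%, beside 33.5%) and 3 were not called; RAB10, RAB27B and RAB8A lost their calls when a resistant library was left out. Their median log2 fold change was -0.19. RAB3B (ENSG00000169213.7), a RAB of regulated secretion, read 2.74 and 2.58 CPM in resistant cells and 8.39 and 9.53 CPM in wild type cells. Its wild type level was 3.37 times that of resistant cells (log2 fold change -1.44, SE 0.13; limma, adjusted p = 5.7e-05), and RAB3B and RAB39A were the 2 members called lower at a log2 fold change of -1 or below, where 3.58% of all genes tested were. RAB3A, the synaptic vesicle RAB, read 0.80 and 0.79 CPM in resistant cells and 2.19 and 1.65 CPM in wild type cells and also fell (log2 fold change -0.70; limma, adjusted p = 0.0067). With 0.25 CPM added in place of 1, RAB3A lay at -1.04, and under quantile normalization RAB9A lay at -1.04. RAB3D, the paralog of exocrine secretory granules, read 51.4 and 53.8 CPM in resistant cells and 56.2 and 56.1 CPM in wild type cells. It did not pass (limma, adjusted p = 0.3), but was called lower under quantile normalization (0.036). RAB27B and RAB27A, which dock secretory lysosomes and exosome-bearing endosomes at the plasma membrane, read as follows. RAB27B had 1.75 and 2.02 CPM in resistant cells and 3.51 and 3.36 CPM in wild type cells and fell by 0.62 on the log2 scale (limma, adjusted p = 0.0061; 0.051 without resistant replicate 1). RAB27A had 37.2 and 36.6 CPM in resistant cells and 41.6 and 42.8 CPM in wild type cells and did not pass (limma, adjusted p = 0.064), though it was called lower under median-ratio scaling (0.016) and quantile normalization (0.0088).

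RAB13, which delivers proteins to tight junctions and the leading edge, read 42.9 and 47.3 CPM in resistant samples and 77.1 and 76.4 CPM in wild type samples. All resistant values lay far below wild type (log2 fold change -0.76, SE 0.08; limma, adjusted p = 1e-04). RAB13 shares all 4 values with an overlapping row, AL358472.6, so reads of the pair cannot be separated. RAB10 and RAB8A, which carry cargo from the Golgi and recycling endosome to the surface and are also named after their values were seen, differed in direction. RAB10 read 112 and 114 CPM in resistant and 130 and 128 CPM in wild type cells (log2 fold change -0.18; limma, adjusted p = 0.037), and its call was lost without resistant replicate 1 (0.23), without resistant replicate 2 (0.18) and without the trend of variance on level (0.1). RAB8A read 109 and 121 CPM in resistant and 93.3 and 92.6 CPM in wild type cells (log2 fold change 0.30; limma, adjusted p = 0.0092; 0.14 without resistant replicate 2).

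Among RABs tied to the primary cilium, RAB23, a negative regulator of Hedgehog signalling, rose to 14.2 and 13.8 CPM in resistant cells, against 9.38 and 9.86 CPM in wild type cells (log2 fold change 0.49; limma, adjusted p = 0.0045; 0.052 without resistant replicate 1). The other two ciliary members, RAB28 and RAB34, did not pass. Of the called members 8 (RAB11A, RAB11B, RAB14, RAB1A, RAB23, RAB2B, RAB3A and RAB6A) overlap a gene on the opposite strand in GENCODE 29, and whether strand was used in counting is unknown here. On the same strand RAB5C overlaps AC099811.2 and RAB8A overlaps HSH2D, besides the rows named above for RAB4B and RAB13. In all, 12 tested members were neither called nor among the paralogs above, with log2 fold changes between -0.16 and 0.59 and adjusted p between 0.057 and 0.83 (limma). RAB12, an autophagy RAB, had the widest spread among these, at 27.6 and 16.2 CPM in resistant and 11.6 and 16.3 CPM in wild type cells. Its second resistant sample lay below its second wild type sample, and the call was not made (limma, adjusted p = 0.06).

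The proteins that load, switch and read RABs changed in both directions. Of 136 tested genes on 5 such lists, 48 rose and 29 fell, or 35.3% and 21.3%, beside 33.5% and 21.6% of all genes; the split was 43 to 40 under median-ratio scaling and 39 to 39 under quantile normalization. Without resistant replicate 1 the counts were 29 and 18, and without resistant replicate 2 they were 28 and 14. Exchange factors had 21 of 46 higher (45.7%) and 8 lower, GTPase-activating proteins 8 of 33 higher and 10 lower, and effectors 16 of 47 higher and 9 lower. For loading onto membranes, 2 of 8 genes rose and 2 fell. RABAC1, the prenylated RAB acceptor of the Golgi, read 35.9 and 38.8 CPM in resistant and 80.8 and 75.7 CPM in wild type cells, with a log2 fold change of -1.05 (SE 0.08; limma, adjusted p = 2.2e-05). RABIF, a chaperone for nucleotide-free RABs such as RAB10, averaged 54.2 ± 0.276 CPM in resistant and 36.6 ± 1.47 CPM in wild type cells (SD, n = 2 each) and rose (limma, adjusted p = 0.00047). RABGGTB, the catalytic subunit of the prenyl transferase, rose 1.31-fold (limma, adjusted p = 0.0017) and shares its values with SNORD45C, a small RNA row. GDI2, a dissociation inhibitor, was called lower (log2 fold change -0.23; limma, adjusted p = 0.022), and that call was lost without resistant replicate 1 (0.082), without resistant replicate 2 (0.25) and without the trend of variance on level (0.075).

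Exchange factors that act on the members above included RABGEF1 and RIN1, which activate RAB5. RABGEF1 averaged 103.5 ± 6.08 CPM in resistant and 149.8 ± 1.63 CPM in wild type cells, and RIN1 31.3 ± 2.61 and 48.8 ± 6.26 CPM (SD, n = 2 each). Both fell (limma, adjusted p = 0.00037 and 0.0015), while RAB5A and RAB5C rose. HPS1, part of the exchange factor of RAB32, rose 1.63-fold, and DENND5B, an exchange factor for RAB39, rose 1.95-fold. DENND3, which activates RAB12, was 1.75 times higher in wild type. Subunits of the TRAPP tethering complexes, which activate RAB1 and RAB11, were divided: TRAPPC10 and TRAPPC4 rose 1.91-fold and 1.56-fold, and TRAPPC9 was 1.64 times higher in wild type. TRAPPC4 shares its values with an overlapping row. Among GTPase-activating proteins, TBC1D16, which acts on RAB4, was 1.97 times and TBC1D4, which acts on RAB10, 1.79 times higher in wild type. TBC1D13, which acts on RAB35, and TBC1D10B rose 1.80-fold and 1.68-fold, and RABGAP1 rose 1.35-fold, with an adjusted p of 0.076 without resistant replicate 1. Of the relatives with no clear RAB substrate, TBC1D31 was 1.66 times higher in wild type and the ciliary TBC1D32 rose 1.56-fold, the call of TBC1D32 being lost at 0.065 and 0.06 without resistant replicate 1 or resistant replicate 2. TBC1D8B was 1.47 times higher in wild type (adjusted p = 0.057 without resistant replicate 1).

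Effectors of the recycling endosome did not move as 1 group. RAB11FIP1, named after its values were seen, read 2.41 and 1.69 CPM in resistant cells and 3.95 and 3.69 CPM in wild type cells. It was called lower (log2 fold change -0.67, limma, adjusted p = 0.0078). RAB11FIP3 and RAB11FIP5 did not pass (limma, adjusted p = 0.44 and 0.54), whereas RAB11FIP2 and MYO5B rose. RAB11FIP2, an adaptor that links RAB11 to myosin V, read 25.3 and 26.8 CPM in resistant samples and 5.87 and 7.49 CPM in wild type samples. The groups were far apart (log2 fold change 1.83, SE 0.13; limma, adjusted p = 1.6e-05). MYO5B, that motor itself, read 14.3 and 13.9 CPM in resistant cells and 4.99 and 4.41 CPM in wild type cells (ratio 3.0; limma, adjusted p = 3.9e-05), whereas RAB11A lay below wild type. SYTL4, an effector of RAB27 named after its values were seen because it lay below the level set for naming, rose to 2.93 and 2.98 CPM in resistant cells, against 0.44 and 0.66 CPM in wild type cells, a ratio of 5.37 (limma, adjusted p = 0.00018). RUFY1, which binds RAB4, rose 1.85-fold and APPL2, a RAB5 effector, 1.72-fold. MICAL2, an actin-oxidising enzyme whose relatives bind RAB8, fell to 8.12 and 8.37 CPM in resistant cells, against 34.9 and 35.6 CPM in wild type cells (log2 fold change -1.97, SE 0.09; limma, adjusted p = 2.6e-06). RPH3AL, an effector of RAB3 and RAB27, the exocyst subunit EXOC6B and the RAB8 effector OPTN were 1.79, 1.44 and 1.5 times higher in wild type; EXOC6B had an adjusted p of 0.056 without resistant replicate 2. Of the kinases that act on RABs, TBK1, which phosphorylates RAB7A, rose 1.73-fold (limma, adjusted p = 0.00013).

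**Figure D4:**
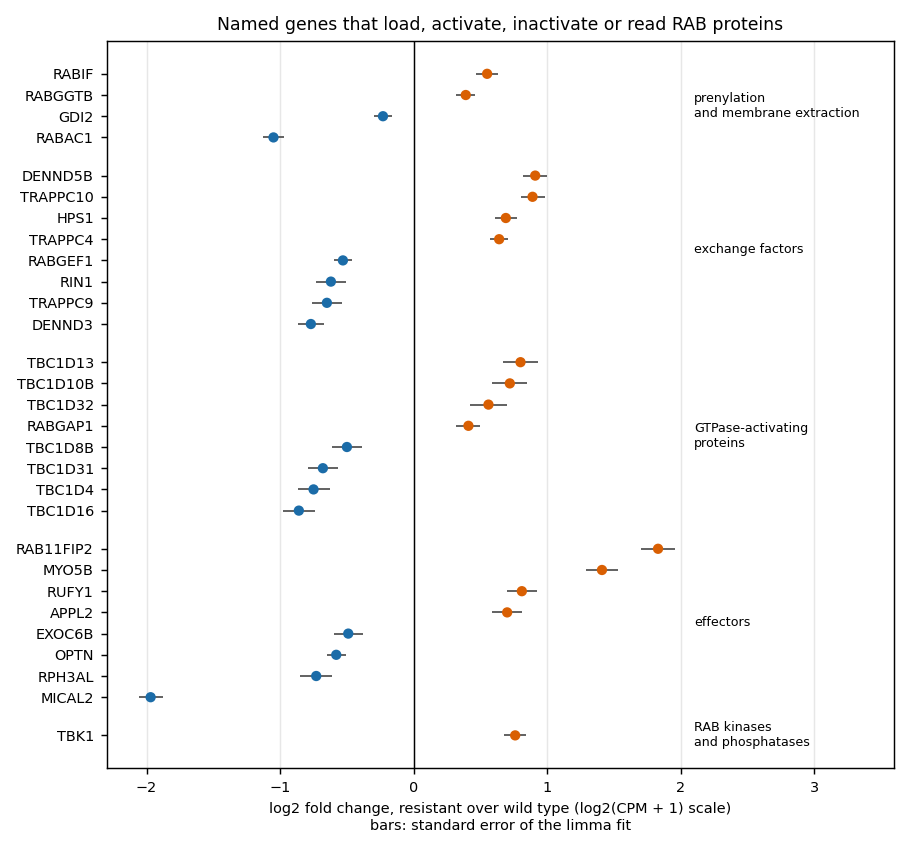
Log2 fold change of resistant over wild type for the 29 named genes that load, activate, inactivate, read or phosphorylate RABs, with bars of 1 SE from the limma fit; orange points are higher and blue points lower in resistant cells. RAB11FIP2 at 1.83 and MICAL2 at -1.97 lie farthest from 0.

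Position on the chromosome was a feature the choice of members did not use. For each member the median log2 fold change of the 5 nearest tested genes on each side, in the order of GENCODE 29, was taken. The neighbour median was above 0 for 13 of the 16 members called higher (81.2%) and for 5 of the 14 called lower (35.7%), beside 83.1% and 29.9% of all genes called higher and lower, close to the members' shares. RAB4A had all 10 of its neighbours called higher, with a median of 0.99, close to its own 1.07. RAB2A had 8 of 10 neighbours called lower, with a median of -0.54 beside its own -0.63, and RAB9A had 7 of 10 called lower, with a median of -0.37. RAB29 and RAB7B, which both rose, are themselves neighbours with 1 tested gene between them, so they are not independent. Several members stood apart from their surroundings. For RAB22A, 1 of its 10 neighbours was called higher and their median was 0.13. The neighbours of RAB39A had a median of 0.25 while RAB39A fell. RAB39B, at 1.03, had only 6 such neighbours, with a median of -0.04. RAB3B, at -1.44, and RAB27B, at -0.62, had neighbour medians of -0.06 and 0.36. Gene copy number was not measured, and its part in these changes was not tested.

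**Figure D5:**
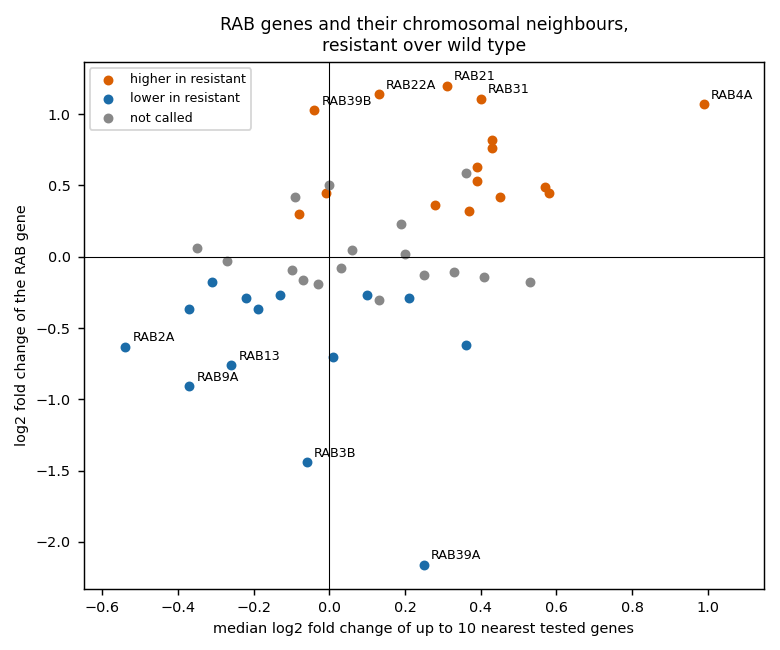
Log2 fold change of each tested RAB gene (vertical axis) against the median log2 fold change of up to 10 nearest tested genes (horizontal axis), resistant over wild type; orange marks members called higher, blue called lower and grey not called. RAB4A lies at a neighbour median of 0.99, and RAB39A at the foot of the plot with a neighbour median of 0.25.

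The labelled cell type was checked against marker lists. Of 15 urothelial and epithelial markers 4 were among the genes analysed, namely KRT7, KRT8, KRT18 and TP63, with TP63 at 0 in both resistant samples. The other 11, among them the uroplakins and GATA3, were looked up and were not among the genes analysed. The label itself is the name of the cell line, and this check of it rests mainly on keratins. The 4 summed to 138.7 to 144.0 CPM in resistant and 403.1 to 407.6 CPM in wild type cells, a difference carried by KRT8 and KRT18, whereas KRT7 was higher in resistant cells, at 10.05 and 10.0 CPM against 5.32 and 5.56 CPM in wild type cells. The 3 mesenchymal markers summed to 1399.7 to 1494.6 CPM in resistant and 1389.3 to 1419.2 CPM in wild type cells, nearly all of it VIM. The other two went opposite ways: CDH2 read 44.4 and 39.8 CPM in resistant and 20.1 and 18.5 CPM in wild type cells, and ZEB1 read 17.9 and 16.6 CPM in resistant and 34.4 and 34.9 CPM in wild type cells. Of 5 leukocyte markers only CD68 was analysed, at 28.0 and 29.9 CPM in resistant and 71.5 and 52.2 CPM in wild type cells. Of 4 fibroblast markers 2 were analysed, summing to 0.67 to 0.70 CPM in resistant and 0.05 to 0.06 CPM in wild type cells, and none of 3 endothelial markers was analysed. The levels of the keratins, CDH2, ZEB1 and CD68 thus differed between the groups, with no test given here, and their part in the RAB changes was not tested. The 2 fibroblast markers lay below the filter of a mean of 1 CPM and rest on few reads. In bulk samples, fewer cells of a kind and less RNA per cell cannot be told apart.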

How the data were processed

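CAGE libraries from total RNA (random-primed cDNA, cap-trapped, per the labels' protocols) were available for 2 resistant and 2 wild type samples. The authors deposited CPM values per gene, 1 column per sample, each scaled to its own total. Per the submitters' processing notes, which give no roles, the tool was BWA 0.5.9 and the builds listed were hg19 and mm9. Counter, annotation and strand use were not given in the sources used here; reads of overlapping or antisense genes may not be separated. Each CPM lies within 0.0052 of a multiple of 1 step per column (0.0472 to 0.0562 CPM), taken as 1 read. No count model was run on these reads beyond the bounds and exact intervals given for RAB20 and RAB39A.

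Genes averaging 1 CPM or more were fitted on log2(CPM + 1) with limma 3.58.1 in R 4.3.3 (eBayes with trend, Benjamini-Hochberg over 12587 genes, two-sided, threshold 0.05), a fit checked on simulated data. Fold changes on this scale understate low genes. With 2 against 2, a permutation test cannot go below p = 0.333. Values were shown for the 12 largest called changes in each direction and their paralogs, and for up to 4 called genes per list and direction with at least 5 CPM. Members, lists, motifs and groups were chosen with earlier results of these data known. Promoters are from RefSeq, and gene order from GENCODE 29.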

Additional observations from a re-analysis of the deposited data

How the results depend on the processing

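Across 14 alternatives, 16 of the 30 called RAB members kept their call in each that gave them a value, 14 lost it in at least 1 and 0 changed sign; of the 29 named partner genes 24 kept it in all. Leaving out 1 library gave 12 to 18 RAB members higher and 7 to 13 lower, 28 to 46 partner genes higher and 14 to 26 lower, and 2556 to 4316 genes higher and 1636 to 2787 lower in all. The median log2 fold change of the members, -0.03, lay between -0.06 and 0.03 over these, and was 0.02 at a mean of at least 5 CPM, -0.08 with no filter on low values, -0.11 under median-ratio scaling and -0.15 under quantile normalization. The median of all genes, 0.09, was 0.01 under both scalings. RAB5B, not called, was at -0.07 under median-ratio scaling, -0.12 under quantile normalization, -0.04 without resistant replicate 1 and -0.11 without wild type replicate 2, a range over left-out libraries of -0.11 to 0.14; RAB6B, not called, was at 0.07 without wild type replicate 2, in a range of -0.42 to 0.07. The cause of these shifts was not tested, except that fits with 3 samples have fewer residual degrees of freedom and assume the lone sample to vary like the other group. With the replicate number as a block, 19 members were higher and 13 lower; the labels pair no samples, and same-numbered samples deviated from their group means at r = -0.0788 across 12587 genes. RAB4B lost its call there, and no other called member and none of the 29 named partner genes did. No count model was run beyond the exact intervals of RAB20 and RAB39A, and the depth limits RAB17, RAB20 and RAB39A to bounds.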
